A study of Mus musculus with 5 samples.

Results

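Ccl2, Ccl7, Ccl8, Ccl12 and Ccl11, which encode CC chemokines, and Ccr2 and Ccr1, which encode receptors for such chemokines, were followed through every cell type of mouse skin. The 7 genes were chosen by their symbols, as a ligand and receptor group, and are 7 of the 27998 genes counted. Live cells were sorted from C57BL/6 skin and captured singly in droplets with the 10x Genomics 3' v1 kit, which counts transcripts at their ends. The 3 wounded libraries came from mice wounded at 7 weeks of age with a 6-mm punch, and a 10-mm disc, which includes skin around the wound, was collected at 4 days. The 2 un-wounded libraries came from normal skin, for which the labels give no age. No genotype, sex or drug is given for either group. The labels do not say whether the libraries of a group came from separate animals, so p-values measure only the spread between these libraries.

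CC chemokines are small secreted proteins that bind receptors of the G protein-coupled class and draw leukocytes into tissue. Ccr2 is the receptor that classical monocytes need to leave the bone marrow and enter inflamed tissue, and Ccl2, Ccl7 and Ccl12 are its best known ligands in the mouse. Ccl11, also called eotaxin, attracts eosinophils through Ccr3, and mouse Ccl8 signals through Ccr8. Ccr1, a receptor of neutrophils, monocytes and other leukocytes, binds Ccl3, Ccl5 and Ccl7 among others.

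The 5 ligand genes lie in 1 block of 81.2 kb on the plus strand of chromosome 11 (build mm10, GENCODE vM21 annotation), in the order Ccl2 (chr11:82035571-82037453), Ccl7 (chr11:82045712-82047525), Ccl11 (chr11:82057823-82062955), Ccl12 (chr11:82101845-82103400) and Ccl8 (chr11:82115185-82116799). Ccr1 (chr9:123962124-123968692, minus strand) and Ccr2 (chr9:124101950-124113557, plus strand) lie within 151.4 kb of each other on chromosome 9. Ccl2 overlaps the annotated gene Gm17268, which held 0 UMIs in all 5 libraries. The stretch of coding sequence around the adjacent cysteine codons that give CC chemokines their name is shown to let the 5 ligands be told apart, with those codons in capitals; each stretch is 81 bases, 5′ to 3′, from the GENCODE vM21 transcripts.
Ccl2: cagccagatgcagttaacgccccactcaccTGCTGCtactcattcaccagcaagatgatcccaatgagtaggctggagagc
Ccl7: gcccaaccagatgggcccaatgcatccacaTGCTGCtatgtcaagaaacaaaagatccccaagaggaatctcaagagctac
Ccl8: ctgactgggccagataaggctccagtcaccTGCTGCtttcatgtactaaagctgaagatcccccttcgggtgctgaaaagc
Ccl12: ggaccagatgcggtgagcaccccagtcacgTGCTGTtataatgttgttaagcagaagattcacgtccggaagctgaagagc
Ccl11: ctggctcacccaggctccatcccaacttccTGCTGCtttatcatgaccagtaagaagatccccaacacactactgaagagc
Over the whole coding sequence, the 10 pairs of ligands were 49.8% to 67.7% identical, counted over all alignment columns with gaps included. The Ccl2 coding sequence is 447 bases long, against 294 to 315 for the others. Its pairs therefore hold more gaps, and they gave the lowest values, 49.8% to 52.4%. Over whole transcripts, the longest run of bases that any pair shared was 23, between Ccl2 and Ccl7. Ccr2 and Ccr1 were 62.7% identical by the same count, with a longest shared run of 16 bases in their transcripts.

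RefSeq promoters (GRCm38.p6, from 250 bases before the start site to 50 after it) were matched for Ccl8, Ccl12, Ccr2 and Ccr1. Those of Ccl8 (chr11:82114935-82115234, plus strand) and Ccl12 (chr11:82101595-82101894, plus strand) are shown because both were high in the same macrophage cluster described further on. Most Ccl8 UMIs of wounded libraries nonetheless lay in fibroblasts. The capitals mark TATAAA.
Ccl8 promoter: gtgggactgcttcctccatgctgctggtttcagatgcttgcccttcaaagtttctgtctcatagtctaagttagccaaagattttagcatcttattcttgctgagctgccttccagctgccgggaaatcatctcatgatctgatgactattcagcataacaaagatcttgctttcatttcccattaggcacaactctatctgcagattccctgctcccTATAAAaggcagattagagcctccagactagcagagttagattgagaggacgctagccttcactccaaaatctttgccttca
Ccl12 promoter: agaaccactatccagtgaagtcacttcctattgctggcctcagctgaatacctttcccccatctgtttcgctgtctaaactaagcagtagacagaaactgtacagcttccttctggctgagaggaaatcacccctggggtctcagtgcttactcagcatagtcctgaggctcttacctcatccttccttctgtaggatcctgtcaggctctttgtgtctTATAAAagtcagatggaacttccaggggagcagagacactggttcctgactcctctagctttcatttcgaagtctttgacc
TATAAA lay 32 bases before the start site of Ccl8 and 31 bases before that of Ccl12, and 13.6% of 32851 promoters of the same length hold it on either strand. Neither promoter held TGANTCA (AP-1), TTCNNNGAA (STAT), GAGGAAGT (PU.1) or the NF-kB motif on either strand, which 7.81%, 8.30%, 3.20% and 8.46% of promoters hold. Of the other matched promoters, that of Ccr2 held none of these motifs nor TATAAA, and that of Ccr1 held the NF-kB motif alone, 74 bases before its start site.

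Counts are unique molecular identifiers (UMIs), 1 for each captured transcript, and levels are given in CPM, the UMIs of a gene over all UMIs of the cells summed, on the usual CPM scale. After filtering, 7066, 4405 and 3991 cells were kept in wounded libraries 1, 2 and 3 and 5035 and 5145 cells in un-wounded libraries 1 and 2, with median UMIs per cell of 6019 to 7933. They formed 31 clusters, of which 28 were named from marker genes and grouped into 16 cell classes. Fibroblasts were 31.4%, 43.3% and 35.3% of kept cells in wounded libraries and 9.65% and 40.2% in un-wounded libraries, so that un-wounded library 1 stood apart. Macrophages or monocytes were 4.59%, 10.9% and 24.8% of wounded cells and 0.119% and 0.758% of un-wounded cells, which is 6 and 39 cells in un-wounded skin. Neutrophils and mast cells were found in wounded libraries alone (43, 134 and 34 neutrophils, and 21, 20 and 47 mast cells). The mast cell class was led by Cma1, Mcpt4, Tpsb2, Cpa3, Mcpt8, Hdc and Il4, and whether it mixes cell types was not tested. Wounded library 2 held 1869 CPM of globin transcripts, against 11.2 to 19.5 CPM in each of the other libraries. From 26 to 63 cell barcodes were shared by any pair of libraries.

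Over whole libraries, all 7 genes were higher in each wounded library than in either un-wounded library, as were 23.1% of the genes tested. Ccl2 stood at 2052, 1001 and 1722 CPM in wounded libraries 1, 2 and 3 and at 36.3 and 157 CPM in un-wounded libraries 1 and 2. Ccl7 had 1242, 1053 and 1241 CPM in wounded skin, against 74.9 and 412 CPM in un-wounded skin. The values of these ligands were spread more widely between the un-wounded libraries, in relative terms, than between the wounded ones. Ccl8 averaged 334 ± 173 CPM in wounded and 56.6 ± 66.8 CPM in un-wounded libraries, and Ccl11 231 ± 45.9 CPM in wounded and 95.9 ± 73.4 CPM in un-wounded libraries (SD, n = 3 and 2). Ccl12, a mouse ligand of Ccr2, was the sparsest ligand in un-wounded skin, with 405, 325 and 1396 UMIs in wounded and 0 and 100 UMIs in un-wounded libraries. Ccr2 stood at 12, 67.5 and 40.9 CPM in wounded and 1.27 and 8.07 CPM in un-wounded libraries, the last 2 values resting on 40 and 311 UMIs. Ccr1 stood at 13.3, 43.8 and 46.3 CPM in wounded and 0.222 and 0.779 CPM in un-wounded libraries, where it had 7 and 30 UMIs.

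By edgeR's quasi-likelihood test with Benjamini-Hochberg adjustment over 15498 genes, none of the 7 passed an adjusted p of 0.05 in whole libraries, where 0.574% of genes were called higher in wounded skin. The log2 fold changes (wounded over un-wounded, with SE) were 4.09 ± 0.74 for Ccl2 (adjusted p = 0.0696), 2.34 ± 0.69 for Ccl7 (adjusted p = 0.119), 2.67 ± 1.05 for Ccl8 (adjusted p = 0.181) and 3.86 ± 1.57 for Ccl12 (adjusted p = 0.192). Those of Ccl11, Ccr2 and Ccr1 were 1.33 ± 0.51 (adjusted p = 0.177), 3.20 ± 1.06 (adjusted p = 0.140) and 6.16 ± 0.92 (adjusted p = 0.0584) in the same edgeR fit. DESeq2 on the same sums passed 5 of the 7, namely Ccl2 (adjusted p = 6.87e-09), Ccr1 (2.03e-14), Ccr2 (0.00296), Ccl7 (0.00336) and Ccl8 (0.0174), and left Ccl11 (0.0629) and Ccl12 (0.232) short of the threshold, with 2667 of all genes called. In a whole-library sum, fewer cells of a type and less RNA per cell cannot be told apart.

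**Figure D1:**
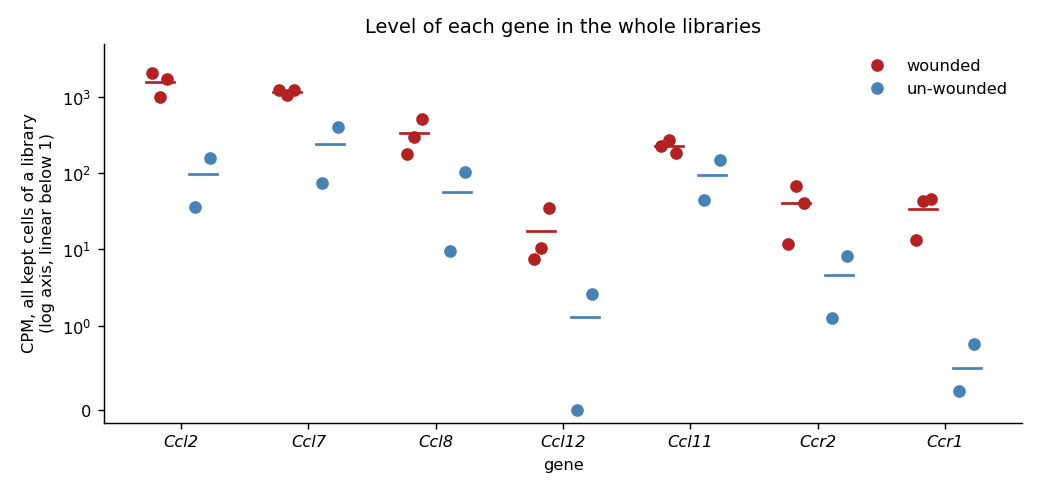
CPM of each of the 7 genes in the 3 wounded (left) and 2 un-wounded libraries (right), 1 point per library with a line at the group mean, on an axis that is logarithmic above 1 CPM and linear below. Every wounded point lies above both un-wounded points for each gene, with Ccl2 at 1001 CPM or more in wounded and at 157 CPM or less in un-wounded libraries.

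Fibroblasts held most of the Ccl2, Ccl7 and Ccl11 UMIs of every library, wounded or not. They held 77.7%, 87.5% and 82.0% of the Ccl2 UMIs of wounded libraries and 56.3% and 87.2% of those of un-wounded libraries. Their part of the Ccl7 UMIs was 84.6%, 88.7% and 84.4% in wounded and 72.7% and 90.4% in un-wounded libraries. Of the Ccl11 UMIs they held 81.4%, 98.5% and 92.6% in wounded and 92.4% and 98.2% in un-wounded libraries. The pericyte or smooth muscle class, cells that wrap vessels, came next for Ccl2 in wounded library 1, with 16.7% of the UMIs there, 1.80% and 8.51% in the other wounded libraries, and 3.67% and 0.23% in un-wounded libraries. Ccl8 was divided between fibroblasts and macrophages. Fibroblasts held 81.5%, 79.3% and 66.2% in wounded and 84.8% and 29.7% in un-wounded libraries. Macrophages or monocytes held 15.8%, 18.7% and 31.7% in wounded and 4.71% and 64.5% in un-wounded libraries. Ccl12 was a macrophage transcript, with 84.0%, 94.5% and 95% of its UMIs in macrophages or monocytes of wounded libraries and 85% in un-wounded library 2. The receptors lay in leukocytes. Macrophages or monocytes held 52.4%, 20.5% and 54.8% of Ccr2 UMIs in wounded and 17.5% and 14.8% in un-wounded libraries. Of the Ccr1 UMIs macrophages or monocytes held 44.8%, 29.7% and 63.8% in wounded and 0% and 16.7% in un-wounded libraries. Dendritic cells held 26.1%, 40.6% and 24.1% of them in wounded and 0% and 43.3% in un-wounded libraries. T or NK cells held 2.47%, 1.89% and 0.978% in wounded and 85.7% and 26.7% in un-wounded libraries. These un-wounded Ccr1 shares rest on 7 and 30 UMIs. Neutrophils held 15.4%, 20.5% and 4.35% in wounded libraries. Exact two-sided permutation tests over the 5 libraries, whose smallest possible p is 0.1, gave p = 0.6 for the fibroblast share of Ccl2, 0.7 for that of Ccl7, 0.7 for that of Ccl8 and 0.8 for that of Ccl11, and 0.2 for the macrophage share of both Ccr2 and Ccr1.

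**Figure D2:**
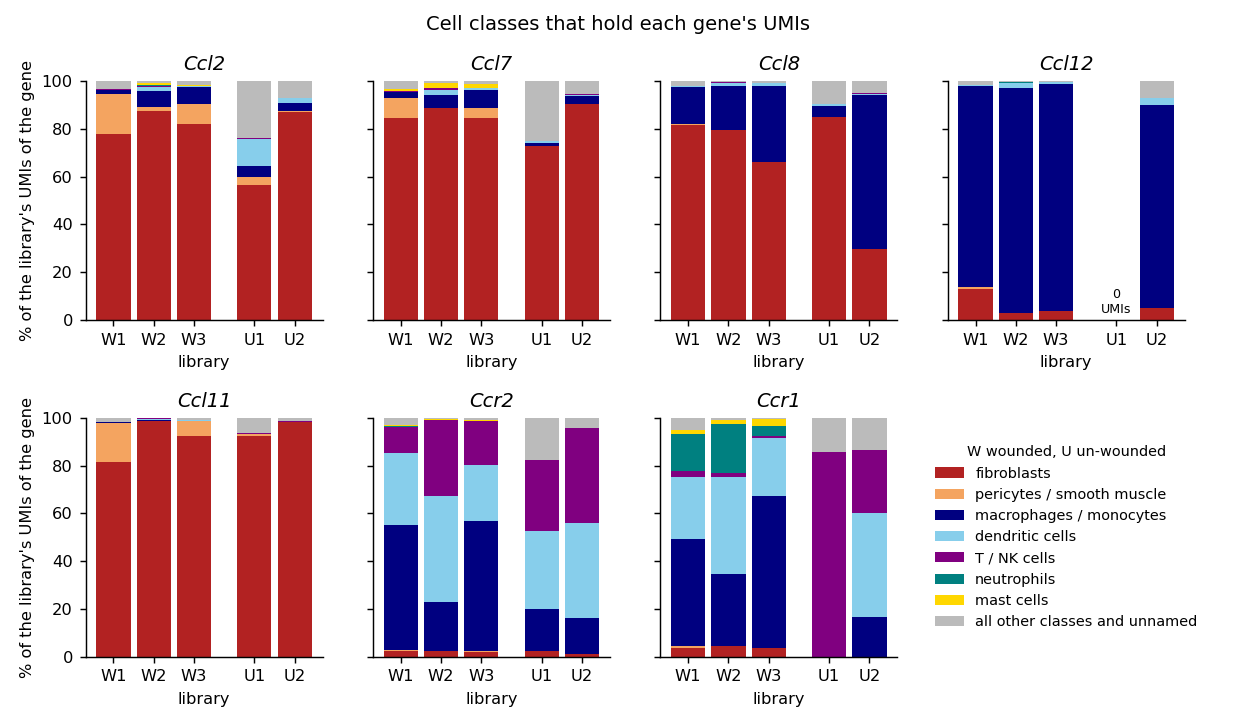
Percent of each library's UMIs of each gene that lay in each cell class, 1 stacked bar per library with wounded libraries left of un-wounded ones. Fibroblasts fill most of the Ccl2, Ccl7 and Ccl11 bars, macrophages or monocytes most of the Ccl12 bars (un-wounded library 1 has no Ccl12 UMI and no bar), and several leukocyte classes divide the bars of Ccr2 and Ccr1.

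In CPM of each class, the order of the classes in wounded skin differed from gene to gene. For Ccl2 the order was pericytes or smooth muscle cells (3608 ± 558 CPM), fibroblasts (3219 ± 1380 CPM), mast cells (2443 ± 1375 CPM) and macrophages or monocytes (770 ± 218 CPM; SD, n = 3 wounded libraries throughout this ordering), each overlapping the next in its range over libraries. For Ccl7 mast cells came first (5914 ± 1683 CPM) and did not overlap fibroblasts (2458 ± 537 CPM), which did not overlap pericytes or smooth muscle cells (886 ± 750 CPM). Pericytes overlapped macrophages or monocytes (677 ± 242 CPM). The mast cell value rested on few cells: of the 594, 714 and 885 Ccl7 UMIs in that class, 397, 572 and 790 lay in the 2 highest cells of each wounded library. Ccl8 was highest in macrophages or monocytes (784 ± 255 CPM) and fibroblasts (571 ± 193 CPM), whose ranges overlapped, and both stood above dendritic cells (24.4 CPM). Ccl12 stood at 158 ± 62.4 CPM in macrophages or monocytes and next at 2.15 CPM in fibroblasts, without overlap. Ccl11 stood at 502 ± 96.2 CPM in fibroblasts and next at 230 ± 185 CPM in pericytes or smooth muscle cells, also without overlap.

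**Figure D3:**
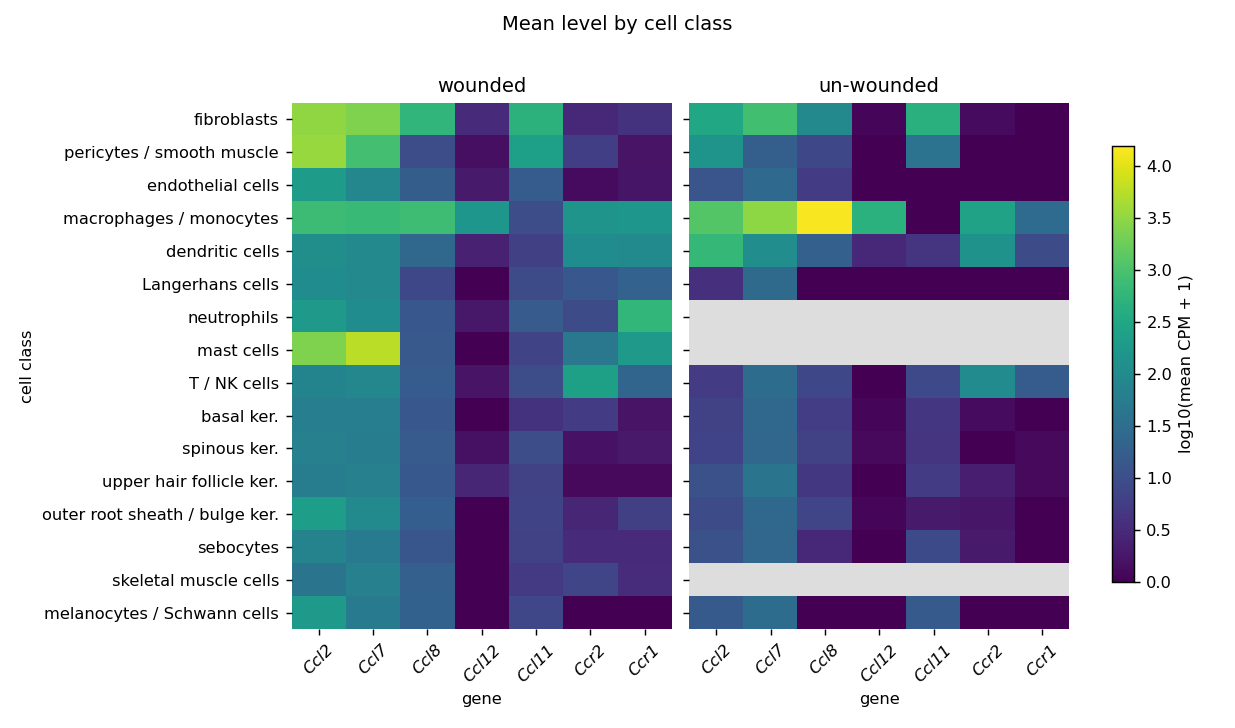
Heat map of the mean CPM of each gene (columns) in each cell class (lines), as log10(mean CPM + 1), over the libraries with at least 15 cells of the class, with wounded skin in the left panel and un-wounded skin in the right one; grey marks classes with no such library. Ccl2 is brightest in pericytes or smooth muscle cells and fibroblasts of wounded skin (3608 and 3219 CPM), Ccl12 in macrophages or monocytes and Ccr1 in neutrophils, and the un-wounded macrophage values come from un-wounded library 2 alone (Ccl8 at 14661 CPM).

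Within fibroblasts, the cells that build the dermal matrix, Ccl2, Ccl7, Ccl8 and Ccr1 passed the test as higher in wounded skin, 4 of 7 genes, where 5.62% of 13320 genes were called higher and 1.5% lower. Ccl2 stood at 4594, 1834 and 3228 CPM in wounded fibroblasts and at 276 and 365 CPM in un-wounded fibroblasts, a log2 fold change of 3.41 ± 0.44 (SE; edgeR's quasi-likelihood test, adjusted p = 0.00315). Ccl8 had 422, 501 and 789 CPM in wounded and 108 and 82.1 CPM in un-wounded fibroblasts, a log2 fold change of 2.72 ± 0.38 (edgeR adjusted p = 0.00412). For both genes the groups did not overlap (18.1% of tested genes had every wounded library above both un-wounded ones), and the call held in 18 of 18 alternative analyses. Without clusters 14 and 15, which are described further on, the log2 fold change was 2.27 for Ccl2 and 3.59 for Ccl8 (edgeR adjusted p = 0.0416 and 0.0457). Ccl7 had 3024, 1955 and 2396 CPM in wounded and 736 and 991 CPM in un-wounded fibroblasts, a log2 fold change of 1.60 ± 0.31 (edgeR adjusted p = 0.0172). That call was lost without un-wounded library 1 (1.38, edgeR adjusted p = 0.122), without un-wounded library 2 (1.85, adjusted p = 0.0658) and without clusters 14 and 15 (1.44, adjusted p = 0.0888).

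The eotaxin gene Ccl11 lay in fibroblasts of both groups at 543, 571 and 392 CPM in wounded and 550 and 387 CPM in un-wounded libraries, values that overlapped. Its log2 fold change in fibroblasts was 0.20 ± 0.26 (edgeR adjusted p = 0.728), while the whole-library values above did not overlap. Ccl12 (2.74, 0.599 and 3.10 CPM in wounded, 0 and 0.346 CPM in un-wounded fibroblasts) and Ccr2 (0.896, 3.26 and 1.84 CPM in wounded, 0.428 and 0.276 CPM in un-wounded fibroblasts) did not pass, with edgeR adjusted p = 0.106 and 0.0865. Ccr1 had 1.37, 4.32 and 3.68 CPM in wounded fibroblasts and no UMI among 16804128 in un-wounded fibroblasts, which makes its wounded mean at least 17.5-fold higher than the 0.179 CPM that 3 counts over the group would give (edgeR adjusted p = 0.0166). These Ccr1 levels stand beside 0.971, 0 and 1.90 CPM in wounded spinous keratinocytes and 0 and 0.518 CPM in un-wounded ones, and the call was lost without un-wounded library 2 (edgeR adjusted p = 0.179) and without clusters 14 and 15 (adjusted p = 0.116).

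With each cell thinned to 1500 UMIs, the share of fibroblasts holding a Ccl2 UMI was 44.1%, 36.3% and 47.1% in wounded and 10.6% and 13% in un-wounded libraries (71.6%, 55.6% and 68.6% against 17.9% and 23.9% unthinned). Thinned spinous keratinocytes held a Ccl2 UMI in 14.3%, 6.25% and 4.73% of wounded and 0.591% and 1.11% of un-wounded cells. Their median depths were 8571 to 13282 and of 7559 and 10312 UMIs, against 6597 to 9497 and 4850 and 6840 UMIs in fibroblasts. The Ccl2 UMIs were unevenly spread over fibroblasts. The tenth of fibroblasts with the most Ccl2 held 81.5%, 76.9% and 66.8% of the class's Ccl2 UMIs in wounded libraries and 93.2% and 90.9% in un-wounded libraries.
For Ccl7 the thinned percent of fibroblasts was 54.6%, 50.4% and 57.8% in wounded and 24.4% and 34.0% in un-wounded libraries (77.3%, 74.9% and 79.7% against 39.7% and 58.8% unthinned). For Ccl8 it was 25.4%, 33.2% and 38.4% in wounded and 8.35% and 11% in un-wounded libraries (52.8%, 58.7% and 70.3% against 23.7% and 28.2% unthinned). That of Ccl11 overlapped between groups, at 42.8%, 46.2% and 35% in wounded and 41.1% and 35.7% in un-wounded libraries.

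Ccl2 and Ccl7 tended to be found in the same fibroblasts. After thinning, a Ccl7 UMI was present in 74.4%, 74.1% and 79.3% of Ccl2-positive wounded fibroblasts and in 66.7% and 70.6% of Ccl2-positive un-wounded fibroblasts. Among Ccl2-negative fibroblasts it was present in 39.1%, 36.9% and 38.7% of wounded and 19.4% and 28.6% of un-wounded cells. Ccl11 showed no such split in wounded fibroblasts: it was detected in 40.4%, 47.3% and 34.5% of Ccl2-positive and 44.7%, 45.5% and 35.4% of Ccl2-negative cells. In un-wounded library 1 it was detected in 54.9% of 51 Ccl2-positive and 39.5% of Ccl2-negative fibroblasts. Both shares were 35.7% in un-wounded library 2.

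The fibroblast clusters differed in which ligand they held, given here as a description since the clusters come from the same cells. Cluster 14, led by Cxcl5, Cthrc1 and Sfrp2 with haemoglobin Hbb-bs also among its leading genes, had 413, 167 and 393 wounded and 0 and 1 un-wounded cells. It had the highest Ccl2 of the 6 fibroblast clusters in each wounded library, at 10800, 4198 and 4822 CPM, and held 64.5%, 39.3% and 60.2% of all Ccl2 UMIs of wounded libraries. Its cells had a median of 18760.5 UMIs, against 5711 to 9590 in the other fibroblast clusters, and deeper cells add more to such a share. In cluster 14 Ccl8 (274, 147 and 214 CPM) and Ccl11 (172, 169 and 164 CPM) were lower than in the matrix fibroblasts of cluster 10. A list of wound fibroblast genes (Cthrc1, Postn, Tnc, Acta2, Lox and Mmp13) summed to 3699 to 5732 CPM in cluster 14 of wounded libraries and to 175 to 2521 CPM in the other fibroblast clusters.

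Cluster 10, led by Cpz, was present in both groups with 668, 767 and 198 wounded and 265 and 1063 un-wounded cells. Its Ccl2 stood at 893, 1561 and 1377 CPM in wounded and 226 and 406 CPM in un-wounded libraries. Its Ccl7 stood at 2208, 2811 and 2735 CPM in wounded and 888 and 1220 CPM in un-wounded libraries. Its Ccl8 stood at 487, 882 and 2113 CPM in wounded and 136 and 94.0 CPM in un-wounded libraries. So each of these 3 ligands was higher in every wounded library than in both un-wounded ones, within a cluster that both groups filled. Over all fibroblasts 18.1% of tested genes had this order, and the share within cluster 10 was not computed. Cluster 10 also held 29.4%, 51.2% and 16.1% of all Ccl11 UMIs in wounded and 65.4% and 66.4% in un-wounded libraries. Ccl11 stood there at 914, 929 and 868 CPM in wounded and 718 and 514 CPM in un-wounded libraries. It thus had the same order in this cluster, though its values overlapped over all fibroblasts.

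Clusters 11, 12 and 13 also had Ccl2 higher in each wounded library, though closely so in cluster 13. Cluster 11, led by Igfbp2, had Ccl2 at 1755, 2406 and 2274 CPM in wounded and 209 and 552 CPM in un-wounded libraries. Cluster 12, led by Lbp and high in the fascia list, had 1375, 1289 and 1663 CPM in wounded and 144 and 320 CPM in un-wounded libraries. In cluster 13, led by Coch and Crabp1, Ccl2 was 1219, 987 and 1602 CPM in wounded and 914 and 93.6 CPM in un-wounded libraries, the last 2 from 67 and 330 cells. Cluster 13 had Ccl8 at 1317, 721 and 2144 CPM in wounded and 55.7 and 46.8 CPM in un-wounded libraries. Cluster 15, led by Cxcl13, had 400, 294 and 198 wounded and 5 and 44 un-wounded cells, with Ccl2 at 1290, 669 and 1749 CPM in wounded libraries and 131 CPM in un-wounded library 2.

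**Figure D4:**
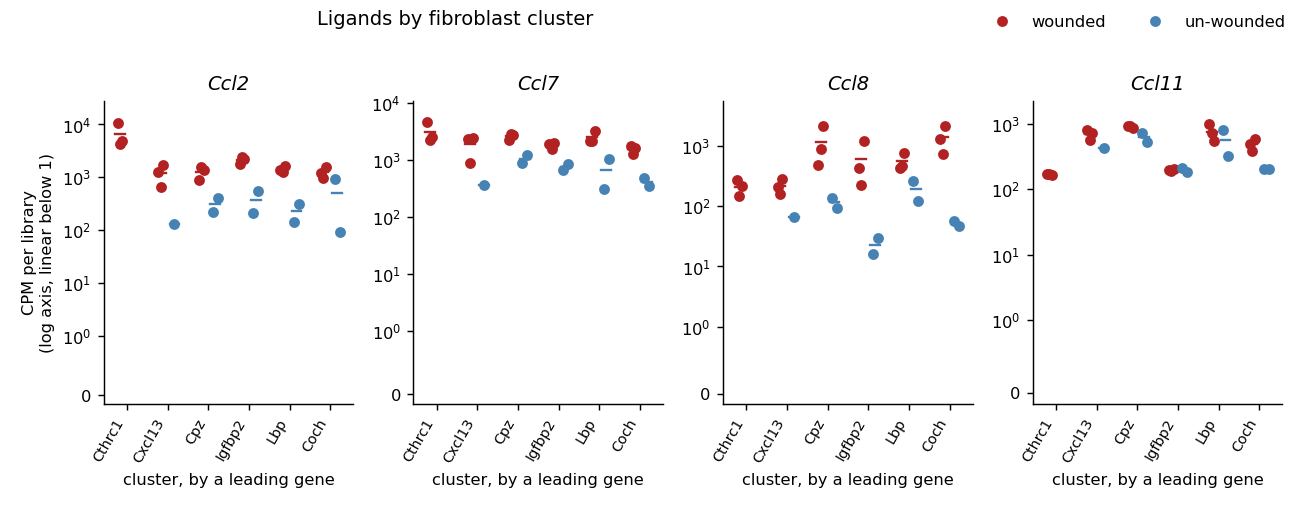
CPM of Ccl2, Ccl7, Ccl8 and Ccl11 in the 6 fibroblast clusters, named by a leading gene (Cthrc1 is cluster 14, Cxcl13 15, Cpz 10, Igfbp2 11, Lbp 12 and Coch 13), 1 point per library with at least 15 cells and a line at the mean, wounded left of un-wounded, on axes logarithmic above 1 CPM and linear below. Cluster 14 has wounded points alone and the highest Ccl2 (4198 to 10800 CPM), while Ccl8 and Ccl11 are lower there than in cluster 10.

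In pericytes or smooth muscle cells Ccl2 and Ccl7 passed as higher in wounded skin, 2 of the 3 genes tested, where 7.88% of 3111 genes were called higher. Ccl2 stood at 3215, 3363 and 4247 CPM in wounded and 224 and 67.4 CPM in un-wounded libraries, a log2 fold change of 4.64 ± 0.57 (SE; edgeR's quasi-likelihood test, adjusted p = 0.00360). The groups did not overlap for Ccl2, as was so for 25.3% of tested genes, and the call held in 15 of 15 alternative analyses. Its log2 fold change was 5.83 without un-wounded library 1, 4.09 without un-wounded library 2 and 5.39 without the 2 highest cells of each gene. Ccl7 had 950, 107 and 1602 CPM in wounded and 10.7 and 24.1 CPM in un-wounded libraries, where it rested on 2 and 5 UMIs, a log2 fold change of 5.64 ± 1.19 (edgeR adjusted p = 0.0169). The Ccl7 call was lost without un-wounded library 1 (5.32, edgeR adjusted p = 0.140) and without un-wounded library 2 (6.48, adjusted p = 0.125). Ccl11, at 356, 17.8 and 315 CPM in wounded and 58.8 and 19.2 CPM in un-wounded libraries, overlapped and did not pass (2.66 ± 0.94, edgeR adjusted p = 0.0913). Ccl8, Ccl12, Ccr2 and Ccr1 were too low in this class to be tested. Wounded library 2 held 20 such cells, against 599 and 92 in wounded libraries 1 and 3 and 50 and 32 in un-wounded libraries 1 and 2. Thinned to 1500 UMIs, 52.1%, 35% and 50% of wounded and 12.2% and 6.25% of un-wounded cells of the class held a Ccl2 UMI (76.8%, 55% and 70.7% against 16% and 25% unthinned).

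In keratinocytes, the epithelial cells of epidermis and follicle, Ccl2 was detected at a low level. Ccl2 and Ccl7 passed as higher in basal keratinocytes, 2 of 5 genes tested, with 1.75% of genes called higher in that class. Basal Ccl2 stood at 98.4, 19.9 and 66.9 CPM in wounded and 3.72 and 7.31 CPM in un-wounded libraries (log2 fold change 3.97 ± 0.44, edgeR's quasi-likelihood test, adjusted p = 1.52e-05). In spinous keratinocytes it stood at 114, 53.5 and 33.3 CPM in wounded and 3.30 and 8.80 CPM in un-wounded libraries. That was 5.56%, 5.35% and 1.93% of the whole-library CPM in wounded and 9.10% and 5.59% in un-wounded libraries. T or NK cells held 128, 58.6 and 45.5 CPM in wounded and 3.41 and 5.40 CPM in un-wounded libraries. The ratio of Ccl2 to Ccl7 UMIs in spinous keratinocytes was 1.42, 0.889 and 0.854 in wounded and 0.325 and 0.240 in un-wounded libraries, beside 1.52, 0.938 and 1.35 in wounded and 0.375 and 0.369 in un-wounded fibroblasts. In basal keratinocytes it was 1.10, 0.333 (4 and 12 UMIs) and 1.74 in wounded and 0.327 and 0.199 in un-wounded libraries. In T or NK cells it was 1.12, 0.598 and 0.862 in wounded and 0.5 (1 and 2 UMIs) and 0.103 (4 and 39 UMIs) in un-wounded libraries. The ratio was thus close to that of fibroblasts in some of these classes and libraries and lower or higher in others. Free RNA in droplets can give UMIs in cells that do not express a gene, and its part in these low values was not tested. Less the spinous level of its library, fibroblast Ccl2 was 4480, 1781 and 3194 CPM in wounded and 273 and 357 CPM in un-wounded libraries.

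The remaining tests in keratinocyte classes and sebocytes were all made by edgeR's quasi-likelihood test with Benjamini-Hochberg adjustment. Basal Ccl2 passed in 17 of 17 alternatives. Basal Ccl7 had a log2 fold change of 1.66 (adjusted p = 0.0341) and passed in 10 of 17 alternatives. It did not pass without un-wounded library 1 (0.98, adjusted p = 0.420), wounded library 1 (1.14, adjusted p = 0.318) or wounded library 2 (1.72, adjusted p = 0.0738), without TMM scaling (1.45, adjusted p = 0.117), with doublets kept (1.62, adjusted p = 0.0692), with robust dispersion estimates (1.66, adjusted p = 0.286) or by DESeq2 (1.59, adjusted p = 0.101). Basal Ccl8, Ccl11 and Ccr2 did not pass (adjusted p = 0.461, 0.818 and 0.531), and Ccl12 and Ccr1 were not tested. In spinous keratinocytes, where 1.29% of genes were called higher, Ccl2 passed (3.67, adjusted p = 0.000838; without un-wounded library 1, 3.08 and 0.111; with robust dispersion estimates, 3.67 and 0.0919), and Ccl7, Ccl8 and Ccl11 did not (adjusted p = 0.135, 0.646 and 0.277). In upper hair follicle keratinocytes, with 0.172% called higher, Ccl2 passed (2.80, adjusted p = 0.0157; without wounded library 1, 1.93 and 0.450; without wounded library 3, 3.03 and 0.0800), and Ccl7 and Ccl8 did not (adjusted p = 0.999 each). In outer root sheath or bulge keratinocytes, with 0.445% called higher, Ccl2 passed (4.60, adjusted p = 0.0277; without un-wounded library 2, 6.20 and 0.104; with robust dispersion estimates, 4.60 and 0.0558; at 5% mitochondrial UMIs, 3.52 and 0.0569), as did Ccl7 (2.02, adjusted p = 0.0495, lost in 11 of 17 alternatives), and Ccl8 did not (adjusted p = 0.614). Outer root sheath or bulge Ccl2 stood at 178, 132 and 351 CPM in wounded and 3.24 and 13 CPM in un-wounded libraries, and 49 of 117, 45 of 75 and 147 of 175 UMIs lay in the 2 highest cells of wounded libraries. In sebocytes 0% of 4939 genes were called by edgeR, 253 had an unadjusted p under 0.05, DESeq2 called 11, and Ccl2 (2.95, edgeR adjusted p = 0.108) and Ccl7 (adjusted p = 0.999) were the members tested. Genes of the 7 not named for spinous, upper follicle, outer root sheath and sebocyte classes were too low to be tested there.

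A test of the difference between classes, fibroblasts minus basal keratinocytes, called 3.05% of 13455 genes and none of the 7. The difference in log2 fold change was −0.37 ± 0.30 for Ccl2 (edgeR's quasi-likelihood test, adjusted p = 0.659), −0.11 ± 0.33 for Ccl7 (adjusted p = 0.960), 0.86 ± 0.64 for Ccl8 (adjusted p = 0.634) and −0.60 ± 0.44 for Ccl11 (adjusted p = 0.625). For Ccl12 it was 4.35 ± 1.92 (edgeR adjusted p = 0.316). For Ccr2 it was 0.00, where the SE, derived from the fold change itself, is not informative. The Ccr2 difference ranged from −5.24 to 1.78 over the alternatives, so its value is poorly determined. Ccr1 gave no usable estimate. The Ccl8 difference passed in 1 of 15 alternatives and not in the main fit. Whether the fold change of any of these genes in fibroblasts differs from that in basal keratinocytes was therefore not shown, though the CPM levels differ. The basal levels are low, and the part of free RNA in them, which this test cannot separate, was not tested.

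In endothelial cells, which line vessels, neither gene tested passed, with 0.54% of 3150 genes called higher. Ccl2 stood at 317, 63.3 and 213 CPM in wounded and 14.7 and 8.72 CPM in un-wounded libraries (4.17 ± 0.99, edgeR's quasi-likelihood test, adjusted p = 0.113), and Ccl7 had an adjusted p of 0.359. Ccl8, Ccl12, Ccl11, Ccr2 and Ccr1 were not tested there.

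Macrophages or monocytes, the phagocytes that Ccr2 ligands draw in, numbered 324, 479 and 990 in wounded libraries and 6 and 39 in un-wounded libraries, so that no test was made. Ccl8 in wounded libraries stood at 851, 502 and 999 CPM in this class. In un-wounded library 2 it stood at 14661 CPM (2580 UMIs in 39 cells, exact Poisson 95% interval 14101 to 15238 CPM, counting error only), and in un-wounded library 1 all 14 Ccl8 UMIs lay in 1 cell. Ccl8 was thus higher in the few macrophages of un-wounded library 2 than in any wounded library. After thinning, 10.8%, 7.10% and 12.1% of wounded macrophages or monocytes and 59.0% of those of un-wounded library 2 held a Ccl8 UMI (16%, 17.1% and 24% against 64.1% unthinned). Ccl12 stood at 187, 86.5 and 201 CPM in wounded libraries and at 483 CPM (85 UMIs, interval 386 to 597 CPM) in un-wounded library 2. Un-wounded library 1 had no Ccl12 UMI in its 6 cells. Ccl2 stood at 1010, 585 and 715 CPM in wounded and at 1530 CPM (50 UMIs, 45 of them in 2 cells) and 1193 CPM (210 UMIs) in un-wounded libraries. Ccl7 stood at 955, 521 and 555 CPM in wounded and 949 and 3023 CPM in un-wounded libraries. Each wounded value of Ccl2 in this class was below both un-wounded values. Those rest on 6 and 39 cells and on another mix of the 2 clusters described next. Ccl11 stood at 11, 11.3 and 3.94 CPM in wounded and 30.6 CPM (1 UMI) and 0 CPM in un-wounded libraries, beside 2.85 to 13.4 CPM in wounded spinous keratinocytes.

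The class was made of 2 clusters whose ligands differed. Cluster 20 was led by C1qa and other genes of tissue macrophages, Ccl12 among them. Its summed resident macrophage list (C1qa, Mrc1, Cd163, Folr2 and others) was 12743, 9662 and 14772 CPM in wounded libraries, against 1374, 1079 and 2078 CPM in cluster 26. Cluster 26 was led by Arg1, and its inflammatory monocyte list (Ly6c2, Plac8, Chil3 and others) summed to 4794, 4224 and 6854 CPM in wounded libraries, against 966, 1530 and 1041 CPM in cluster 20. Ccl8 was 3264, 5026 and 4097 CPM in wounded cluster 20 (27339 CPM from 2579 UMIs in 26 cells of un-wounded library 2) and 71.3, 37.0 and 65.1 CPM in wounded cluster 26. Ccl12 was 563, 738 and 620 CPM in wounded cluster 20 (901 CPM in un-wounded library 2) and 65.5, 19.6 and 74.7 CPM in wounded cluster 26. Both ligands thus sat mainly in the C1q-rich cluster, while cluster 26 had 234, 424 and 765 cells in wounded and 3 and 13 cells in un-wounded libraries. Ccl2 was divided more evenly, at 997, 553 and 590 CPM in wounded cluster 20 and 1014, 588 and 752 CPM in wounded cluster 26. In un-wounded library 2 cluster 20 had 2004 CPM of Ccl2, above each wounded value. It held 3.12% of that library's Ccl2 UMIs, of 3.46% in the whole class. The remainder left cluster 26 of that library, with 13 cells, below each wounded value of Ccl2 there. After thinning, a Ccl12 UMI was present in 51.4%, 26.5% and 27.5% of Ccl8-positive wounded macrophages or monocytes and in 7.27%, 2.70% and 8.97% of Ccl8-negative ones. In un-wounded library 2 these shares were 39.1% and 0%.

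Ccr2 was held by 4 leukocyte classes of wounded skin: T or NK cells (238 ± 67.6 CPM), macrophages or monocytes (149 ± 34.7 CPM), dendritic cells (110 ± 21 CPM) and mast cells (47.2 ± 42.2 CPM; SD, n = 3), each overlapping the next, and then neutrophils (8.11 CPM). In mast cells Ccr2 rested on few cells: after thinning, 0 of 21, 4 of 20 and 1 of 47 wounded mast cells held a UMI of it. In macrophages or monocytes it stood at 188, 123 and 135 CPM in wounded libraries and at 214 CPM (7 UMIs, exact Poisson 95% interval 86.1 to 441 CPM) and 261 CPM (46 UMIs, 191 to 349 CPM) in un-wounded libraries. Each wounded value of Ccr2 was thus below both un-wounded values per UMI of the class, which rest on 6 and 39 cells, but neither the shares of cells nor cluster 20 showed this order in un-wounded library 2. Spinous keratinocytes had 0.416, 0 and 1.43 CPM of Ccr2 in wounded and 0 and 0 CPM in un-wounded libraries. After thinning, 22.8%, 15.4% and 16.3% of wounded macrophages or monocytes held a Ccr2 UMI, against 33.3% and 15.4% of un-wounded ones (45.4%, 40.1% and 42.7% against 66.7% and 28.2% unthinned), and beside 0.245%, 0% and 1.35% of wounded spinous keratinocytes. Between the macrophage clusters, Ccr2 was 333, 245 and 175 CPM in wounded cluster 20 and 141, 110 and 123 CPM in wounded cluster 26. In un-wounded library 2 it was 95.4 CPM in cluster 20 (9 UMIs in 26 cells), below all 3 wounded values, and 453 CPM in cluster 26 (37 UMIs in 13 cells), above all 3. The 3 cells of cluster 20 in un-wounded library 1 held 4 UMIs of Ccr2, and the 3 cells of cluster 26 held 3.

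Dendritic cells, which carry antigen to lymph nodes, held Ccr2 at 108, 132 and 90.2 CPM in wounded and 110 and 161 CPM in un-wounded libraries, which overlapped (log2 fold change −0.28 ± 0.29, edgeR's quasi-likelihood test, adjusted p = 0.706). The transcript lay in cluster 7, led by Cd209a, at 125, 155 and 108 CPM in wounded and 110 and 163 CPM in un-wounded libraries. It was near 0 in cluster 28, led by Ccr7, at 0, 7.21 and 1.42 CPM in wounded libraries. Ccr1 was the single member called in dendritic cells, 1 of 6 tested, where 2.37% of 8182 genes were called higher. It stood at 104, 78.6 and 106 CPM in wounded and 0 and 16.9 CPM in un-wounded libraries (2.85 ± 0.48, edgeR adjusted p = 0.0139). Un-wounded library 2 had 13 UMIs, of which 11 lay in 2 cells. Without wounded library 3 it was 2.71 with an edgeR adjusted p of 0.0514. Ccl2 in dendritic cells was 184, 78.4 and 85 CPM in wounded and 1117 and 151 CPM in un-wounded libraries, with 83 of 132 UMIs in 2 cells of un-wounded library 1 (−2.19 ± 0.61, edgeR adjusted p = 0.0839). Ccl7, Ccl8 and Ccl11 did not pass (edgeR adjusted p = 0.903, 0.844 and 0.999), and Ccl12 was not tested.

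T or NK cells, defined without Trac, Trbc2 and Trdc, which the gene table lacks, held Ccr2 at 168, 303 and 244 CPM in wounded and 41.0 and 167 CPM in un-wounded libraries. Each wounded library was above both un-wounded ones, with the closest pair nearly equal, and the difference did not pass (1.29 ± 0.61, edgeR's quasi-likelihood test, adjusted p = 0.417; 0.12% of 6688 genes were called higher). The Ccr2 lay in 1 of the class's 2 clusters. Cluster 24, led by Gzmc, had 224, 306 and 263 CPM in wounded and 160 and 193 CPM in un-wounded libraries. Cluster 21, led by Cd3g, had 0 UMIs of Ccr2 and of Ccr1 in all 5 libraries, with 23, 8 and 17 wounded and 98 and 35 un-wounded cells. Ccr1 in T or NK cells was 42.0, 11.6 and 14.6 CPM in wounded and 20.5 and 10.8 CPM in un-wounded libraries (0.61, edgeR adjusted p = 0.711). Of the ligands, Ccl2 (4.02 ± 0.59, edgeR adjusted p = 0.0737) and Ccl7 (1.45, adjusted p = 0.378) did not pass in this class, and Ccl8, Ccl12 and Ccl11 were not tested.

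Ccr1 was highest in neutrophils, the first leukocytes to enter a wound, at 544, 710 and 554 CPM in wounded libraries. Their mean of 603 ± 92.7 CPM did not overlap mast cells (180 ± 45.3 CPM). Mast cells overlapped macrophages or monocytes (158 ± 36.4 CPM), which stood above dendritic cells (96.3 ± 15.3 CPM) and T or NK cells (22.8 ± 16.7 CPM; SD, n = 3). After thinning, 41.9%, 62.7% and 47.1% of neutrophils held a Ccr1 UMI (72.1%, 79.9% and 76.5% unthinned), although the class has a median of 2620 to 3376 UMIs per cell. In macrophages or monocytes Ccr1 was 179, 116 and 178 CPM in wounded libraries and 0 CPM and 28.4 CPM (5 UMIs, exact Poisson 95% interval 9.23 to 66.3 CPM) in un-wounded libraries. Cluster 26 carried more of it than cluster 20, at 219, 122 and 207 CPM against 56.3, 51.4 and 81.8 CPM in wounded libraries, the opposite of the order for Ccr2 in the same cells. Detection of Ccr1 differed little with that of Ccr2 in the same cell: a Ccr1 UMI was present in 23.0%, 14.9% and 26.7% of Ccr2-positive and in 19.6%, 16.3% and 20.4% of Ccr2-negative wounded macrophages or monocytes after thinning.

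**Figure D5:**
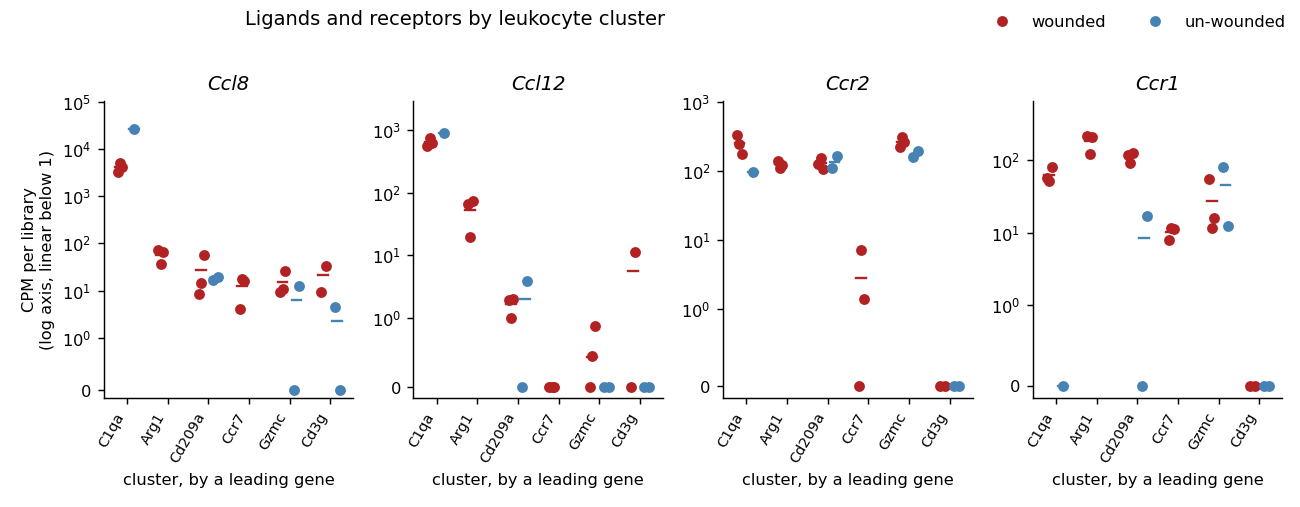
CPM of Ccl8, Ccl12, Ccr2 and Ccr1 in 6 leukocyte clusters, named by a leading gene (C1qa is cluster 20, Arg1 26, Cd209a 7, Ccr7 28, Gzmc 24 and Cd3g 21), 1 point per library with at least 15 cells and a line at the mean, wounded left of un-wounded, on axes logarithmic above 1 CPM and linear below. Ccl8 and Ccl12 are high in cluster 20 (Ccl12 at 563 to 738 CPM in wounded libraries), Ccr1 is highest in cluster 26 of wounded libraries 1 to 3 (122 to 219 CPM), and Ccr2 and Ccr1 are at 0 in cluster 21.

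Other genes of the pathway, 27 ligands, receptors and inducers listed for their function, passed the test in some classes. In fibroblasts 22 were tested, 9 passed as higher in wounded skin (among them Ccl3, Ccl4, Ccl6, Ccl9, Cx3cr1, Il1b, Il6 and Tnfaip3) and 1 as lower (Csf1r), with a median log2 fold change of 1.82 for the list and −0.01 for all genes, of which 5.62% were called higher and 1.5% lower. Il6, a cytokine of inflamed fibroblasts, stood at 401, 380 and 508 CPM in wounded and 55.6 and 140 CPM in un-wounded fibroblasts (2.22 ± 0.42, edgeR's quasi-likelihood test, adjusted p = 0.0157). Tnfaip3, an NF-kB feedback inhibitor, stood at 215, 274 and 213 CPM in wounded and 54.3 and 122 CPM in un-wounded fibroblasts (1.49, edgeR adjusted p = 0.0411). The leukocyte chemokine Ccl3 was at 29.2, 153 and 51.3 CPM in wounded fibroblasts, beside 15.3, 152 and 14.7 CPM in wounded spinous keratinocytes, and at 0 and 2.56 CPM in un-wounded fibroblasts. Il1b, an inflammatory cytokine of leukocytes, was at 31.0, 146 and 114 CPM in wounded fibroblasts, beside 27.2, 114 and 73.9 CPM in wounded basal keratinocytes. Ccl4, likewise a leukocyte chemokine, was at 29.2, 172 and 43.3 CPM in wounded fibroblasts, beside 43.7, 109 and 34.6 CPM in wounded basal keratinocytes. Ccl6 and Ccl9 were at 3.9 to 13.7 and 11.7 to 31.8 CPM in wounded fibroblasts, beside 4.96 to 6.07 and 5.19 to 9.93 CPM in wounded basal keratinocytes. The part of free RNA or of leukocyte transcripts in these fibroblast values was not tested. Csf1r, the receptor for macrophage colony-stimulating factor, fell to 31.6, 30.2 and 23.7 CPM in wounded fibroblasts, against 60.8 and 72.2 CPM in un-wounded fibroblasts (edgeR adjusted p = 0.0110). In pericytes or smooth muscle cells 9 were tested and 2 passed, both higher, where 7.88% of genes were called higher. They were Csf1, a growth factor for macrophages (69.7, 71.1 and 63.4 CPM in wounded, 16 and 19.2 CPM in un-wounded libraries), and Tnfaip3 (174, 195 and 226 CPM in wounded, 53.4 and 57.7 CPM in un-wounded libraries), with edgeR adjusted p = 0.0191 and 0.0108. In dendritic cells, with 2.37% of genes called higher, 1 of 15 passed, Ccl5, a T cell chemokine, at 618, 1070 and 318 CPM in wounded and 0 and 62.3 CPM in un-wounded libraries (edgeR adjusted p = 0.0185). Basal and spinous keratinocytes had 6 higher of 18 and of 17 tested, in both cases Ccl3, Ccl4, Ccl6, Ccl9, Il1b and Il6, where 1.75% and 1.29% of genes were called higher. Upper hair follicle keratinocytes had 3 of 9 (Ccl3, Ccl4 and Il1b, with 0.172% called higher) and those of the outer root sheath or bulge 1 of 6 (Ccl3, with 0.445% called higher). None passed in whole libraries (27 tested), T or NK cells (14), endothelial cells (7) or sebocytes (5). The test of fibroblasts minus basal keratinocytes passed 1 of 22, Csf1r, with a difference of −2.61 (edgeR adjusted p = 0.0276).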

How the data were processed

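Single cells of 3 wounded and 2 un-wounded mouse skin samples were counted by the authors, who deposited raw UMI counts per gene and barcode, made with Cell Ranger 1.3.1 on mm10 per the submitters' processing notes. The least deep barcodes hold 1410 to 2881 UMIs, so barcodes were filtered before deposit by a step not given in the sources used here. Libraries hold 33537809 to 59621412 UMIs in all. Groups and replicate numbers come from the titles.

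Barcodes with under 200 genes or over 10% mitochondrial UMIs were dropped (62, 72 and 23 wounded and 108 and 143 un-wounded barcodes removed for the last). The highest Scrublet scores were removed at 0.8% per 1000 barcodes (459, 177 and 138 wounded and 231 and 243 un-wounded cells). In scanpy 1.11.5 (Python 3.11.15), 2000 variable genes without the 7 members, 30 principal components, 15 neighbours and Leiden resolution 1.0 gave the clusters. A cluster was named when 3 markers reached 10 CPM and its score led by 0.5. Vascular with lymphatic endothelial cells, and melanocytes with Schwann cells, were merged after scores were seen. Class sums with at least 15 cells in every library were tested with edgeR 4.0.16 (R 4.3.3; filterByExpr, TMM, quasi-likelihood, Benjamini-Hochberg over all genes of the class, threshold 0.05), and with DESeq2 1.42.0 as an alternative. The scripts were tested on simulated data. Robust dispersion estimates in edgeR were tried first and replaced by the default after their counts of calls had been seen. CPM use the UMIs of the class sum as the total, and log2 fold changes are edgeR's. Thinning to 1500 UMIs per cell left out 0 wounded and 21 un-wounded cells. Exact Poisson intervals are 95% and cover counting error only, and a floor is 3 counts. Background shares of promoters come from all promoters in the RefSeq table.

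All 7 members are named in every comparison, and of the pathway list every gene that passed, apart from items that are not reported here. For each member, up to 3 genes most like it over class sums are named. The members, lists, markers and the minimum of 15 cells were chosen with earlier results of these data known. Alternatives covered the test, filter, scaling, replicate numbers, each library, doublets, cell filters, clustering, the 2 highest cells and a subtraction of the spinous level.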

Additional observations from a re-analysis of the deposited data

Results flagged for a closer look

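Cluster 6, led by Sostdc1, took no cell type name and so entered no comparison, yet it held Ccl2 above the level that 3 counts allow in every library. Its Ccl2 stood at 337, 201 and 215 CPM in wounded libraries 1, 2 and 3 and at 51 and 95.6 CPM in un-wounded libraries 1 and 2. Both un-wounded values exceed those of the named keratinocyte classes, the highest of which were 10.1 and 13 CPM of Ccl2. The wounded values exceed the highest of the named keratinocyte classes in libraries 1 and 2 (178 and 132 CPM) and lie below it in library 3 (351 CPM). This difference was not tested.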

How the results depend on the processing

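Of 827 log2 fold changes recomputed over 52 results, 716 kept their direction and side of the threshold, 34 lost the call, 51 gained one and 26 changed sign. Of 91 UMI shares 1 moved by more than the replicate SD, the fibroblast share of Ccl7 with doublets kept (83.1%). Of 7 thinned percents 5 moved at 1000 UMIs per cell, in fibroblasts Ccl7 to 47.9%, Ccl8 to 25.2% and Ccl11 to 33.3%, and in macrophages or monocytes Ccr2 to 13.5% and Ccr1 to 15.8%. Fibroblast Ccl2 and Ccl8, pericyte Ccl2 and basal keratinocyte Ccl2 (log2 fold change 3.47 to 4.40) kept their calls under every alternative run.

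Of 196 counts of genes called 83 moved by over 1.5 times. Without a filter it was 707 in whole libraries, 488 in T or NK cells, 380 in basal, 317 in spinous, 61 in upper follicle and 284 in outer root sheath keratinocytes, 739 in dendritic cells, 199 in endothelial cells, 1811 in fibroblasts, 1107 in pericytes, 94 in sebocytes and 692 for the difference between classes. DESeq2 called 2667 in whole libraries, 98 in T or NK cells, 119 in basal and 60 in outer root sheath keratinocytes, 83 in endothelial cells, 11 in sebocytes and 200 for the difference. With the replicate block, the counts were 0 in whole libraries, 617 in T or NK cells, 562 in basal, 381 in spinous, 193 in upper follicle and 139 in outer root sheath keratinocytes, 895 in dendritic cells, 13 in endothelial cells, 1677 in fibroblasts and 17 in sebocytes. The libraries share only 2 replicate numbers (same-numbered deviations correlated at 0.46 and 0.42), nothing in the labels ties them, and the block was not run for the difference between classes. With 2 un-wounded libraries, the deviations of each mirror those of the other. The crossed pairs therefore gave −0.46 and −0.42, and these correlations are not independent of each other. Robust estimates called 8 in whole libraries and left pericyte Ccl7 at 5.64 without a call (edgeR adjusted p = 0.0518). Without the 2 highest cells of each gene the counts were 0 in whole libraries and in endothelial cells and 525 in dendritic cells. Doublets kept gave 18 in T or NK cells, 176 in dendritic cells and 15 in outer root sheath keratinocytes, the limit of 5% mitochondrial UMIs 0 there and 39 in upper follicle keratinocytes, 500 genes per cell 19 and Leiden resolution 2.0 16 in outer root sheath keratinocytes. Fibroblasts without clusters 14 and 15, chosen after seeing the data, had 18 genes called and Ccl7 at 1.44.

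Leaving out 1 library at a time gave counts of 0 to 2145 in whole libraries, 0 to 27 in T or NK cells, 46 to 521 in dendritic cells, 0 to 18 in endothelial cells, 338 to 1337 in fibroblasts, 0 to 90 in outer root sheath keratinocytes, 50 to 871 in pericytes, 0 to 23 in sebocytes, 8 to 249 in spinous and 1 to 53 in upper follicle keratinocytes. Log2 fold changes then ranged from 1.38 to 1.85 for fibroblast Ccl7, 4.09 to 5.83 for pericyte Ccl2, 4.91 to 6.48 for pericyte Ccl7 and 2.58 to 11.3 for dendritic Ccr1.

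Changes of sign were limited to values that had not passed. Leaving out 1 library, Ccl11 ranged from −0.57 to 1.04 in basal keratinocytes, −0.0256 to 0.44 in fibroblasts and −0.29 to 7.07 in dendritic cells, where Ccl8 ranged from −0.64 to 1.003 and Ccr2 from −0.48 to 0.37. The difference between classes ranged from −0.58 to 0.56 for Ccl7, −1.19 to 2.32 for Ccl8, −1.02 to 0.55 for Ccl11 and −5.24 to 0.83 for Ccr2. In dendritic cells Ccl7 was 0.0217 without a filter and 0.26 without the 2 highest cells. Dendritic Ccl8 was −0.45 with the replicate block, −0.53 at 5% mitochondrial UMIs and −0.28 without the 2 highest cells. Dendritic Ccl11 was 0.0856 without a filter, 0.31 with the replicate block, 0.82 with doublets kept and 0.18 without the 2 highest cells. The difference between classes was 0.0685 at 5% mitochondrial UMIs and 0.17 without the 2 highest cells for Ccl2, and for Ccl7 0.0158 without TMM, 0.0791 with doublets kept and 0.0229 at 500 genes per cell. A minimum of 30 cells gave no value for the classes below it and repeated the main fit in the other classes tested. The cause was not tested for any of these.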

Other observations

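Over the 69 class sums with at least 15 cells (16 classes, 5 libraries), the genes whose log2(CPM + 1) ran most like each member were read as a description; class sums of a library share its cells and depth. Ccl2 ran most like Timp1 (Pearson r 0.737), an inhibitor of matrix metalloproteases, Plac8 (0.732) and Srxn1 (0.705), and Ccl7 like Lif (0.728), Hgf (0.718), both secreted growth factors, and Plac8 (0.706). Ccl11 ran like Tnfaip6 (0.818) and the collagen genes Col3a1 (0.813) and Col6a3 (0.812). Ccl8 ran like F13a1 (0.789), Mmp19 (0.737) and Pf4 (0.703), and Ccl12 like the macrophage genes Msr1 (0.917), Folr2 (0.910) and Ccl24 (0.892). Ccr2 ran like Ms4a6b (0.910), Dok2 (0.907) and Cd48 (0.884), and Ccr1 like Pilrb1 (0.923) and Cd300lf (0.911). Among the members r was 0.818 for Ccl2 with Ccl7, 0.728 for Ccl8 with Ccl12, 0.711 for Ccr2 with Ccr1 and 0.01 for Ccl12 with Ccl11.

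Macrophages or monocytes that held a Ccl2 UMI after thinning also held a Ccr2 UMI in 25.5%, 16.1% and 17% of cells of wounded libraries, against 20.6%, 15.2% and 15.9% of those without a Ccl2 UMI. The Ccl8 UMIs of wounded macrophages or monocytes were held almost wholly by the tenth of cells with the most (98.7%, 98.1% and 97.8%), against 35.5% in un-wounded library 2. Cluster 20, where Ccl8 was high, made up 90 of 324, 55 of 479 and 225 of 990 cells of the class in wounded libraries. It made up 26 of 39 in un-wounded library 2, so these shares compare unlike mixes of cells.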
